A study of Mus musculus and Homo sapiens with 12 samples.

Results

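The genes described here were the long non-coding RNAs (lncRNAs) of imprinted loci and the imprinted coding gene Dlk1: Meg3, Rian, Mirg and Dlk1 of the Dlk1-Meg3 cluster, H19, Kcnq1ot1, Airn, Snhg14 and Peg13. They were chosen by name and found by their Ensembl identifiers. All 9 were listed among 54446 mouse identifiers and 7 of their human counterparts among 58721 human identifiers, since RIAN and MIRG carried no symbol in the human annotation. After the filter on low counts, 8 of 20244 tested mouse genes and 4 of 14522 tested human genes belonged to the set.

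The libraries came from methylated RNA immunoprecipitation of chromatin-associated RNA (caRNA), the RNA recovered with the chromatin fraction: fragments bound by an antibody against 5-methylcytosine (m5C) were sequenced as IP, beside unselected fragments as Input. Mouse embryonic stem cells (mESC) and K562 cells, a human leukaemia line, both of wild-type genotype, each gave 3 Input and 3 IP libraries, and the titles name no treatment. The mESC were grown with serum, LIF, CHIR99021 and PD0325901 and passaged on gelatin to remove feeder cells, whereas K562 cells grew in RPMI with serum; the labels add puromycin, which the methods of the study name only for knockdown lines and their controls. The antibody label contradicted the titles, naming none for mESC IP and the m5C antibody for K562 Input, so groups followed the titles. An IgG control reaction described in the protocol was not analysed here, so IP is compared with Input alone.

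Gene counts ran from 29007088 to 34752646 per mESC Input library, from 473398 to 592324 per mESC IP library, from 10477119 to 11865285 per K562 Input library and from 93110 to 111286 per K562 IP library. In an IP library 3 counts therefore stood for 5.06 to 6.34 CPM (counts scaled to the total gene counts of a library) in mESC and for 27.0 to 32.2 CPM in K562. Of 10 pluripotency markers, 9 had counts, and they summed to 2353 to 2387 CPM in the mESC Input. The 10 fibroblast markers fixed for the feeder cells summed to 80.9 to 83.9 CPM in Input and 144 to 223 CPM in IP, with Lum, a matrix protein of fibroblasts, at 0 counts. The 10 erythroid and megakaryocytic markers summed to 424 to 429 CPM in the K562 Input, with the globin genes HBG2 and HBE1 at 0 counts. The bodies of both lie fully within other annotated genes of the same strand.

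Imprinted genes are expressed from the maternal or the paternal copy alone, and they lie in clusters that share a control region methylated on a single parental allele. Many of these clusters produce a long nuclear RNA that stays near the chromosome it came from. Airn and Kcnq1ot1 are transcribed across, and in the opposite direction to, the coding genes Igf2r and Kcnq1, and they are known for silencing genes in cis on the paternal chromosome. Meg3, Rian and Mirg are maternally expressed in succession from the Dlk1-Meg3 cluster and host small RNAs, whereas Snhg14 is the long paternal transcript that hosts snoRNAs and runs antisense to Ube3a.

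The mESC peak sequences below are shown to set a recurrent peak beside single ones: the Airn sequence is the region shared by all 3 IP replicates, and the H19 and Meg3 sequences are peaks of IP replicate 2 alone. Each is 150 bases of GRCm38, written 5′ to 3′ on the strand given in the deposited peak list, with CpG dinucleotides in capitals. The Airn peak of replicate 1 lies at chr17:12742312-12742461 on the plus strand, the H19 peak at chr7:142576973-142577122 on the minus strand and the Meg3 peak at chr12:109546139-109546288 on the minus strand.
Airn: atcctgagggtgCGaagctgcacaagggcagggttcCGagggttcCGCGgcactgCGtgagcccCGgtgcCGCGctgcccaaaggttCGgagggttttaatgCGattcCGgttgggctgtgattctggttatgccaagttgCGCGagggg
H19: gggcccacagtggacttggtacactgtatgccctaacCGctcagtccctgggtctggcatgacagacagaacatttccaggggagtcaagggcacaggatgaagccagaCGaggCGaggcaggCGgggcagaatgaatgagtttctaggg
Meg3: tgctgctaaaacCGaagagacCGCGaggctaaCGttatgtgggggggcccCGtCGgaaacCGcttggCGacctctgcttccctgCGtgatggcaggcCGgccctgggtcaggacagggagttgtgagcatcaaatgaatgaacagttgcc

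In mESC, the 8 tested genes split evenly: Meg3, Rian, Mirg and Kcnq1ot1 were lower in IP than in Input, and Airn, Snhg14, Dlk1 and H19 were higher. All 8 passed the edgeR quasi-likelihood test at an adjusted p of 0.05, where 82.0% of all tested genes did, so the number of calls does not set them apart. Over all genes 39.9% were called higher and 42.0% lower, and the median log2 IP/Input was -0.17, beside -0.31 over the 8 genes. Dlk1 and H19 reached the filter of 0.676 CPM through the IP libraries only, so they had to be higher there. CPM ranges of IP and Input did not overlap for any of the 8, as for 47.7% of all tested genes with IP higher and 27.6% with IP lower. The size of each ratio depends on the scaling: when library size alone set the scale, the log2 IP/Input was -0.93 for Meg3, -1.27 for Rian, -1.70 for Mirg and -1.42 for Kcnq1ot1, and 2.63 for Airn, 2.33 for Snhg14, 7.17 for Dlk1 and 5.21 for H19. The median over all genes moved with them, from -0.17 to 0.83.

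The log2 ratio fell with the Input level across all genes. Genes under 1 CPM in Input had a median of 4.93, genes from 1 to 10 CPM a median of 0.70, genes from 10 to 100 CPM a median of -1.29 and genes of at least 100 CPM a median of -1.91. A gene under the filter of 0.676 CPM in Input was tested only with IP libraries above it. The values of the lowest band were therefore set in part by the filter. Against genes of their own Input CPM, Meg3, Rian, Mirg and Kcnq1ot1 moved with 97.8% of the genes of at least 100 CPM, which were called lower. Airn and Snhg14 lay in the band from 10 to 100 CPM, where 8.03% of genes were called higher and 74.3% lower, and both were called higher. These bands take no account of gene length. Per kilobase of gene body outside other genes of the same strand, Airn had 0.113 CPM and Snhg14 0.0359 in Input. That was nearer to H19 at 0.0355 than to Kcnq1ot1 at 9.27.

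**Figure D1:**
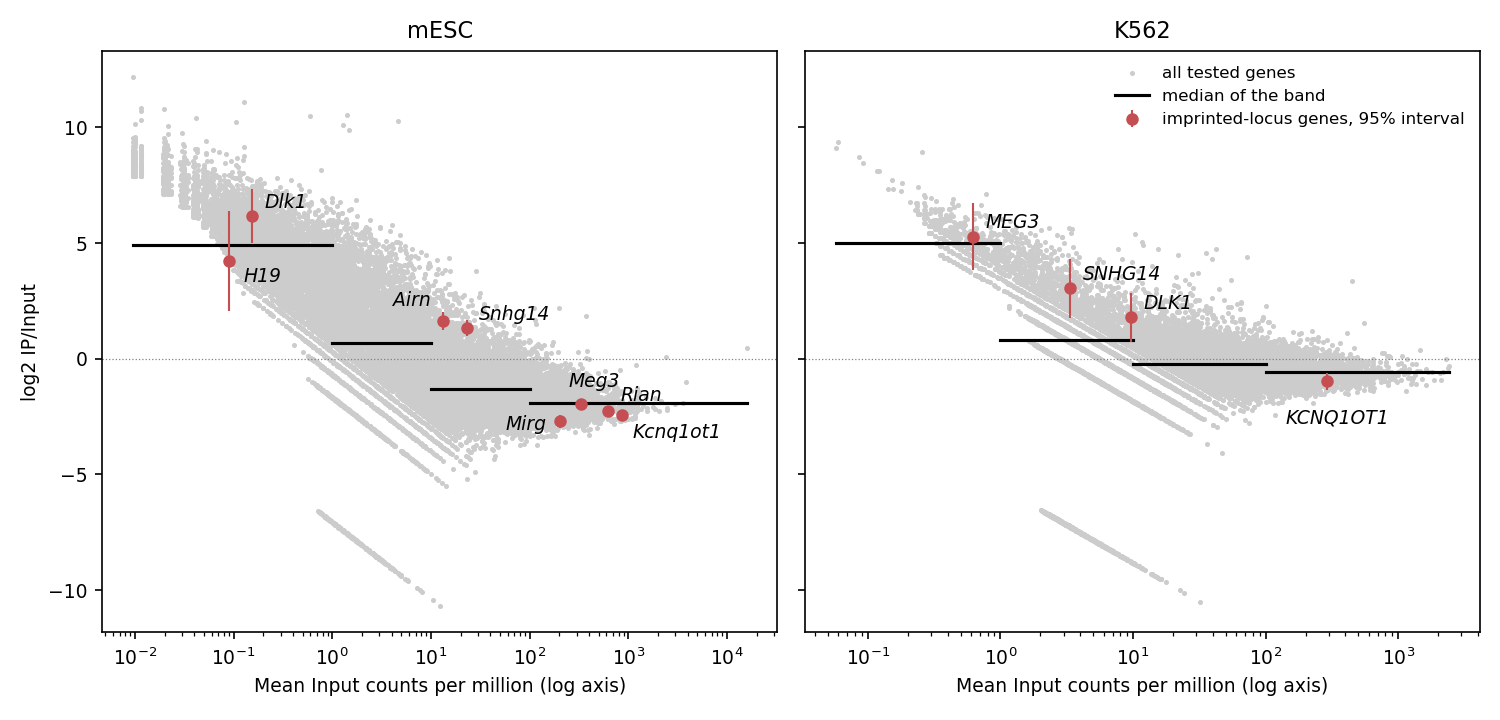
Log2 IP/Input of every tested gene (grey) against its mean Input CPM (log axis) in mESC (left) and K562 (right), with the genes of the imprinted loci in red (bars, 95% interval) and the median of each Input level band as a black line. Airn (log2 1.63) and Snhg14 (log2 1.33) sit above their band median of -1.29, whereas Meg3, Rian, Mirg and Kcnq1ot1 sit from -1.94 to -2.71 beside a band median of -1.91. The bands take no account of gene length.

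Among the maternally expressed RNAs of the Dlk1-Meg3 cluster, Meg3 (ENSMUSG00000021268.17, chr12:109541001-109571726, plus strand) is the first in the order of transcription. It had 334, 339 and 333 CPM in the Input replicates and 146, 165 and 199 CPM in the IP replicates. Every IP library was below every Input library, and the log2 IP/Input was -1.94 ± 0.10 (SE, n = 3 per group; edgeR adjusted p = 3.53e-11).

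Rian (ENSMUSG00000097451.10, chr12:109603940-109661716, plus strand), a host of C/D box snoRNAs, had 625, 615 and 618 CPM in Input and 256, 289 and 209 CPM in IP. The groups did not overlap, and the log2 IP/Input was -2.28 ± 0.08 (SE; edgeR adjusted p = 1.46e-12). Mirg (ENSMUSG00000097391.8, chr12:109729764-109749460, plus strand), the host of a large miRNA cluster, had 202, 201 and 200 CPM in Input and 54.9, 76.5 and 49.0 CPM in IP. It was the furthest down of the 8 genes, at a log2 IP/Input of -2.71 ± 0.14 (SE; adjusted p = 5.23e-11, edgeR).

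Per kilobase of gene body not shared with another gene of its strand, these RNAs stood close to each other in Input. Rian had 11.4 ± 0.0942 CPM per kb, Meg3 11.0 ± 0.106 and Mirg 10.8 ± 0.0499 (SD, n = 3 each), and the ranges of the 3 libraries did not overlap. In IP the order was Meg3 at 5.60 ± 0.892, Rian at 4.61 ± 0.735 and Mirg at 3.23 ± 0.779 CPM per kb (SD, n = 3 each). The IP ranges of Meg3 and Rian overlapped, as did those of Rian and Mirg, whereas those of Meg3 and Mirg did not.

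Count ratios within a library do not depend on how the libraries were scaled, and 8 of them were computed, chosen after the gene values were known. Mirg:Meg3 was 0.605, 0.593 and 0.6004 in Input and 0.377, 0.464 and 0.246 in IP, so Mirg was recovered less than Meg3 in every IP library. Mirg:Rian went from a mean of 0.324 in Input to 0.238 in IP, and Rian:Meg3 from 1.85 to 1.52, where IP replicate 3 at 1.05 stood below IP replicates 1 and 2 at 1.75 each. None of these groups overlapped, and an exact permutation test (two-sided) gave p = 0.1 for each, the lower limit with 3 libraries against 3. The Benjamini-Hochberg adjusted value over the 8 ratios was also 0.1. The ratios are not corrected for GC content. With GC correction the order of Rian and Meg3 turned, at a log2 IP/Input of -1.94 and -2.09, while Mirg stayed lowest at -2.84.

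Dlk1 (ENSMUSG00000040856.17, chr12:109452823-109463336, plus strand), the paternally expressed coding gene of the cluster and a transmembrane protein of the Notch ligand family, was near the floor in Input. It had 4, 7 and 4 counts in the Input libraries and 10, 20 and 8 counts in the IP libraries, or 0.155 ± 0.0506 CPM in Input and 22.9 ± 10.4 CPM in IP (SD, n = 3). All IP values were above all Input values, and the pooled CPM ratio was 148, with an exact 95% counting interval of 79.7 to 290. The log2 IP/Input was 6.17 ± 0.61 (SE; edgeR adjusted p = 1.14e-07), in a band under 1 CPM where 91.6% of the tested genes were called higher. That share was set in part by the filter on low counts.

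H19 (ENSMUSG00000000031.16, chr7:142575529-142578143, minus strand), a maternally expressed RNA that hosts a miRNA, had 0, 7 and 2 counts in Input and 1, 3 and 2 counts in IP. The CPM ranges did not overlap, but the IP level of 3.53 CPM rested on 6 counts in all, and the pooled ratio of 39.0 had a counting interval of 11.4 to 123. The log2 IP/Input was 4.21 ± 1.11 (SE; edgeR adjusted p = 0.00232), beside a median of 4.93 for genes of its Input level. Input replicate 2 held 7 of the 9 Input counts, and without it the log2 was 5.52, while without Input replicate 1 it was 3.69. The 5 primitive endoderm markers moved in the same direction. They summed to 5.08 to 6.58 CPM in Input and 108 to 140 CPM in IP, with 4 called higher. Of tested genes under 1 CPM in Input 91.6% were called higher, and of those from 1 to 10 CPM 44.2%. The values of the lower band were set in part by the filter on low counts. Among the 10 fibroblast markers 3 were called higher and 3 lower. The part of these markers in the Dlk1 and H19 values was not tested. Input and IP were fractions of RNA from the same line, so these sums do not count cells of a type.

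Of the antisense RNAs that span coding genes, Kcnq1ot1 (ENSMUSG00000101609.2, chr7:143203458-143296549, minus strand) was the most abundant of the set in Input. It had 868, 864 and 856 CPM in Input and 351, 332 and 270 CPM in IP. The groups did not overlap, and the log2 IP/Input was -2.43 ± 0.07 (SE; edgeR adjusted p = 1.81e-13). Kcnq1, the potassium channel gene that it crosses, moved the other way, from 8.77 to 95.2 CPM, at a log2 IP/Input of 2.49 ± 0.19 (SE; adjusted p = 6.96e-09, edgeR). The 2 genes lay in different Input level bands. Genes of at least 100 CPM had a median of -1.91, and genes from 1 to 10 CPM 0.70, with 44.2% called higher. Within a library the ratio Kcnq1ot1:Kcnq1 was 94.0, 100.2 and 101.2 in Input and 4.74, 3.10 and 2.58 in IP.

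Airn (ENSMUSG00000078247.4, chr17:12741311-12860136, plus strand) had 12.6, 13.4 and 13.96 CPM in Input and 65.5, 90.1 and 84.4 CPM in IP. Every IP library was above every Input library, on 31, 53 and 50 IP counts, and the log2 IP/Input was 1.63 ± 0.19 (SE; edgeR adjusted p = 8.91e-07). Igf2r, the receptor gene overlapped by Airn and transcribed in the opposite direction, had 69.2 CPM in Input and 59.5 CPM in IP, at a log2 IP/Input of -1.20 ± 0.17 (SE; adjusted p = 8.15e-06, edgeR), with overlapping CPM ranges. The ratio Airn:Igf2r was 0.179, 0.202 and 0.196 in the Input libraries and 1.03, 1.36 and 1.72 in the IP libraries, so Airn counts exceeded Igf2r counts in each IP library and in no Input library.

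Snhg14 (ENSMUSG00000100826.6, chr7:59307924-59975759, minus strand) had 23.5, 20.5 and 25.2 CPM in Input and 123, 119 and 101 CPM in IP. All IP libraries were above all Input libraries, at a log2 IP/Input of 1.33 ± 0.18 (SE; adjusted p = 3.92e-06, edgeR). Ube3a, the ubiquitin ligase gene antisense to its far end, fell by 2.69 ± 0.11 on the log2 scale (SE; edgeR adjusted p = 3.55e-12). Over the Input libraries Ube3a had 27893 counts and Snhg14 2235, and the log2 ratio fell with the Input level across all genes. The ratio Snhg14:Ube3a was 0.0813, 0.0715 and 0.0873 in Input and 1.35, 1.37 and 1.18 in IP. Each of the 3 antisense ratios of mESC separated the groups, again with an exact two-sided permutation p of 0.1 and the same adjusted value.

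**Figure D2:**
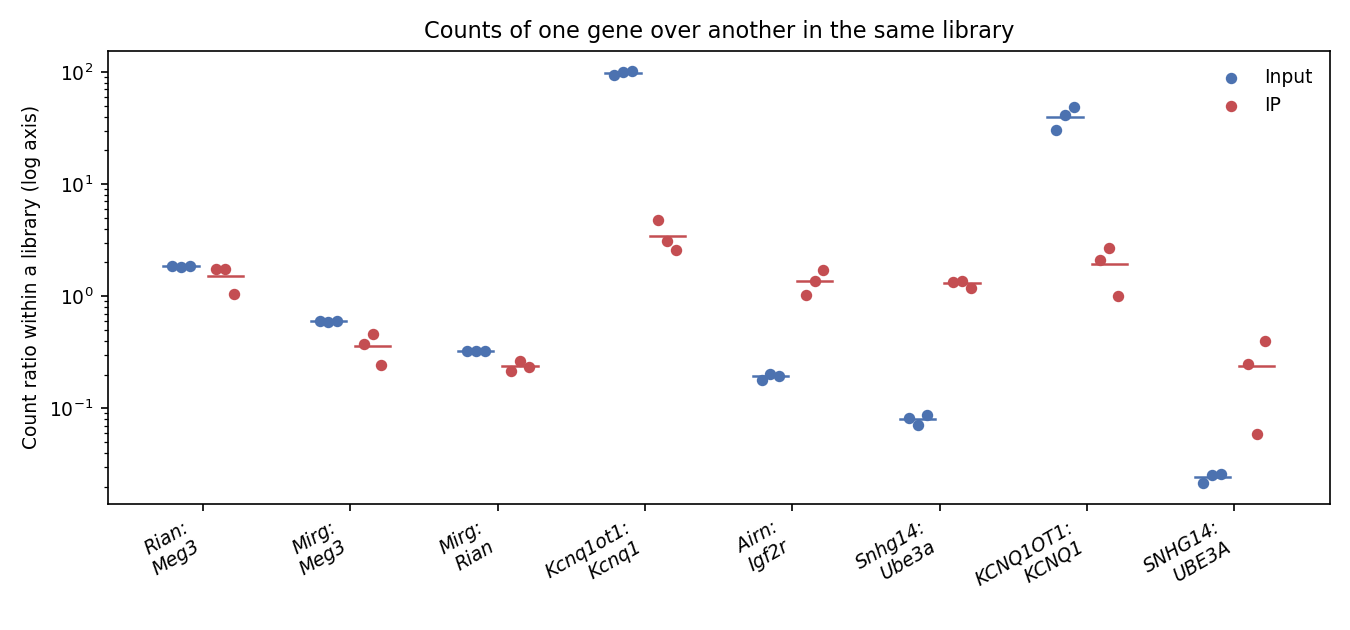
Count of one gene divided by that of another in the same library, for 6 pairs in mESC and 2 pairs in K562 (points, 3 Input libraries in blue and 3 IP libraries in red; bars, means; log axis). Airn:Igf2r and Snhg14:Ube3a are higher in every IP library than in any Input library, and Kcnq1ot1:Kcnq1 is lower.

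Peg13, an imprinted RNA in an intron of Trappc9, was at 0 counts in all 6 mESC libraries. The counts showed how that arose from the counting: of 4739 mouse genes that share no exon base with another gene but lie inside a gene body of the same strand, 8 had any Input count, against 2118 of 4327 such genes inside a body of the opposite strand. In K562 these were 215 of 5892 and 2672 of 7440 genes. These values fit reads counted over whole gene bodies with regard to strand, where a gene inside another of its strand receives almost none. Peg13 lies wholly inside Trappc9 on the same strand, so its level was not measured, and the same held for the small RNA genes within the hosts. All 17 in Rian, 14 in Mirg, 2 in Meg3, 1 in H19 and 208 in Snhg14 were listed at 0.

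Per kilobase of unshared body, Kcnq1ot1 in the Input followed the Dlk1-Meg3 RNAs at 9.27 ± 0.0669 CPM per kb. Airn at 0.113 ± 0.00570 and Snhg14 at 0.0359 ± 0.00371 CPM per kb were far lower, and their ranges did not overlap (SD, n = 3 each). H19 at 0.0355 ± 0.0433 and Dlk1 at 0.0147 ± 0.00481 CPM per kb closed the order, with the range of H19 covering those of Snhg14 and Dlk1. In IP the range of Kcnq1ot1, 2.90 to 3.77 CPM per kb, overlapped that of Mirg, 2.63 to 4.11, and the range of Dlk1, 1.28 to 3.23.

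**Figure D3:**
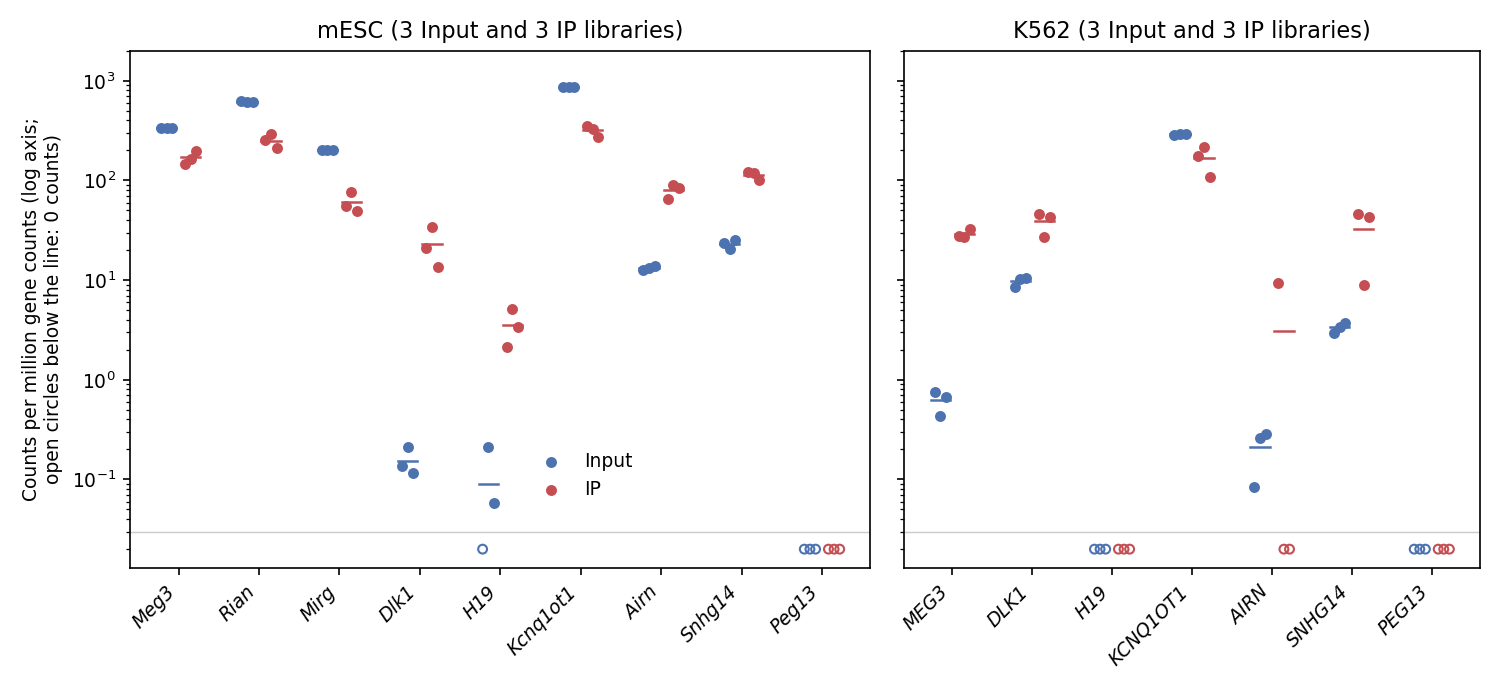
CPM (log axis) of each imprinted-locus gene in every Input (blue) and IP (red) library of mESC (left) and K562 (right); bars are means of 3 libraries, and open circles below the grey line are libraries with 0 counts. In mESC Meg3, Rian, Mirg and Kcnq1ot1 sit lower in IP, and Dlk1, H19, Airn and Snhg14 higher, with no overlap.

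The deposited mESC peak lists held 20 peaks in these gene bodies, 3 in IP replicate 1, 12 in replicate 2 and 5 in replicate 3. They lay in 5 of the 9 genes: 14 in Snhg14, 3 in Airn and 1 each in Meg3, Dlk1 and H19. Rian, Mirg, Kcnq1ot1 and Peg13 held none. Of all annotated mouse genes, 18.4% held a peak of any replicate, whatever their length. The 20 peaks formed 18 regions, and 1 of them, in Airn, was found in all 3 replicates, as were 1711 of 35162 regions in the genome. Of all genes, 0.980% held such a region.

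The Airn region spanned chr17:12742306-12742461 and its centre lay 1.07 to 1.08 kb from the start of Airn, in an annotated intron of Airn and inside the body of Igf2r. It was called on the strand of Airn in each replicate. Only 39.9% to 42.3% of all genic peaks lay on the strand of their gene. The called strand therefore does not assign the region to Airn rather than to Igf2r. The sequence printed above had 62.7% GC and 13 CpG, beside a median of 50.7% GC and 3 CpG over all 32046 peaks of that length, of which 6.91% had at least 10 CpG. The 1754 peaks of that length in regions of all 3 replicates had a median of 54.7% GC and 6 CpG, and 12.1% had at least 10 CpG. Repeats masked 5.33% of the Airn sequence, whereas 75.4% of these 1754 peaks were masked over most of their bases.

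The Snhg14 peaks did not recur between replicates. Each was called in a single replicate, 6 on the strand of the gene and 8 on the opposite strand, and all lay in introns of Snhg14. Of these peaks 5 overlapped annotated snoRNA genes within it, 1 of them on the strand of the snoRNA. They held 0 to 5 CpG, and 11 of the 14 were masked as repeats over most of their bases. In IP replicate 2 a group of 3 peaks on the strand of Snhg14 lay 200.3 to 205.8 kb from its start, and neither of the other replicates had a peak there.

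The remaining peaks were each found in IP replicate 2 alone. The Dlk1 peak lay in an exon 0.758 kb from the gene start on the strand of the gene and had 16 CpG and 74.7% GC. The H19 peak printed above lay 1.10 kb from the start in an exon on the strand of H19, overlapped Mir675, the miRNA gene within H19, and had 4 CpG. The Meg3 peak lay 5.21 kb from the start in an exon, but on the opposite strand, and had 10 CpG. Over all genic peaks, 39.9% to 42.3% lay on the strand of their gene, so the deposited strand of a peak, recurrent or not, is a weak guide to the RNA it came from.

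**Figure D4:**
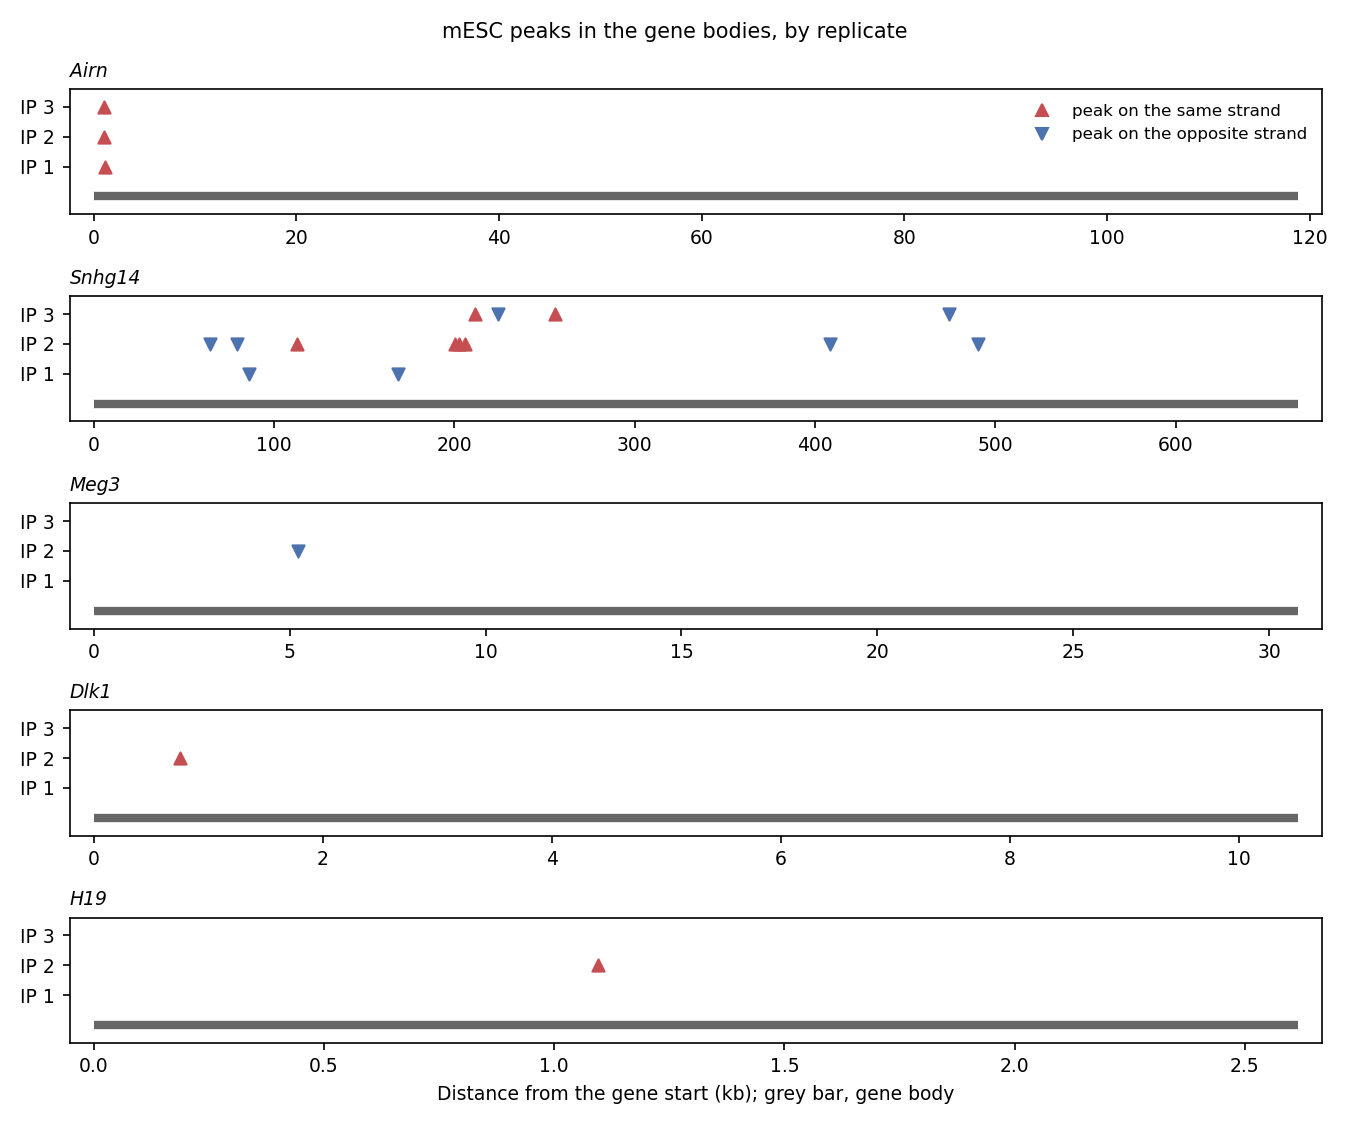
Positions of the 20 mESC peaks along the bodies of Airn, Snhg14, Meg3, Dlk1 and H19, as distance from the gene start in kb, by IP replicate (upward red triangles, strand of the gene; downward blue triangles, opposite strand; grey bar, gene body). The Airn peaks of the 3 replicates coincide near the gene start, and the 14 Snhg14 peaks do not recur between replicates.

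In K562, 4 genes of the set could be tested and all 4 passed, where 31.5% of all tested genes did: MEG3, DLK1 and SNHG14 were higher in IP (15.1% of all genes) and KCNQ1OT1 was lower (16.4%). The CPM ranges did not overlap for these 4 genes, as for 22.4% of all tested genes with IP higher and 24.4% with IP lower. MEG3 reached the filter of 1.89 CPM through the IP libraries only, so it had to be higher there. All of the calls but that of KCNQ1OT1 rested on 9 to 12 IP counts in all, which limits how firmly they can be read. The 7 lymphoid markers summed to 2.58 to 4.59 CPM in Input and 27.8 to 80.9 CPM in IP, with MS4A1 at 0. Of tested K562 genes under 1 CPM in Input 100% were called higher, and of those from 1 to 10 CPM 25.9%. Genes under 1 CPM lay below the filter in Input, so they needed higher IP values to be tested at all. The part of these markers in the values of the set was not tested.

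KCNQ1OT1 (ENSG00000269821.1) had 288, 291 and 293 CPM in Input and 176, 216 and 107 CPM in IP, on 53 IP counts. The groups did not overlap, with IP replicate 3 the lowest, and the log2 IP/Input was -0.98 ± 0.18 (SE; edgeR adjusted p = 2.93e-06). KCNQ1 again moved the other way, from 7.55 to 90.6 CPM, at a log2 IP/Input of 3.35 ± 0.42 (SE; adjusted p = 2.98e-12, edgeR). Genes of at least 100 CPM in the K562 Input had a median of -0.57, and genes from 1 to 10 CPM 0.82, with 25.9% called higher. The ratio KCNQ1OT1:KCNQ1 was 30.3, 41.0 and 48.7 in Input and 2.11, 2.67 and 1.00 in IP (exact two-sided permutation p = 0.1).

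SNHG14 (ENSG00000224078.13) had 35, 39 and 39 counts in Input and 5, 1 and 4 counts in IP, or 3.35 CPM against 32.8 CPM. The IP libraries were all above the Input libraries, with replicate 2 at 8.99 CPM the lowest, and the log2 IP/Input was 3.05 ± 0.66 (SE; edgeR adjusted p = 5.43e-05). UBE3A had 138 and 148 CPM, at a log2 IP/Input of -0.08 ± 0.21 (SE; adjusted p = 0.825, edgeR). The ratio SNHG14:UBE3A was 0.0243 ± 0.00235 in Input and 0.236 ± 0.171 in IP (SD, n = 3; exact two-sided permutation p = 0.1).

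DLK1 (ENSG00000185559.14) had 101, 117 and 109 counts in Input and 5, 3 and 4 in IP, or 8.51, 10.1 and 10.4 CPM against 46.3, 27.0 and 43.0 CPM. The groups did not overlap, and the log2 IP/Input was 1.78 ± 0.54 (SE; edgeR adjusted p = 0.00584). Without IP replicate 1 the log2 was 1.62 and the adjusted p 0.0656 by edgeR. MEG3 (ENSG00000214548.16) had 9, 5 and 7 counts in Input and 3 in each IP library. Its pooled CPM ratio was 46.5, with a counting interval of 18.7 to 106, and its log2 IP/Input of 5.28 ± 0.75 (SE; adjusted p = 6.41e-10, edgeR) compares with a median of 4.99 for genes under 1 CPM.

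The other human genes could not be tested. AIRN (ENSG00000268257.2) had 1, 3 and 3 counts in Input and 1, 0 and 0 in IP. H19 was listed at 0 in all 6 K562 libraries, and so was PEG13, which lies inside TRAPPC9 on the same strand as its mouse counterpart does. The Input level bands had medians of 4.99, 0.82, -0.24 and -0.57 in rising order, and K562 small RNA genes within MEG3, H19 and SNHG14 were listed at 0 throughout.

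The difference of log2 IP/Input between the lines was tested in a joint fit over 14235 genes matched by symbol, in which 31.0% were called, 16.5% higher in K562 and 14.5% lower. MEG3 was 6.61 ± 0.97 higher in K562 (SE; edgeR adjusted p = 3.90e-06), going from below 0 in mESC to above 0 in K562. DLK1 differed by -4.99 ± 0.62 (SE; edgeR adjusted p = 2.48e-07), and it was above 0 in both lines. KCNQ1OT1 differed by 0.81 ± 0.27 (SE; edgeR adjusted p = 0.0213), beside a median difference of 0.16 over all genes, and this call was lost under other scalings.

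SNHG14 differed by 1.09 ± 0.66, with a 95% interval of -0.20 to 2.37 (SE; edgeR adjusted p = 0.224), so its ratio could not be told apart between the lines at this depth. AIRN, with 1 IP count in K562, differed by 1.41 ± 1.85 (SE; edgeR adjusted p = 0.635), and without the library that held this count its direction turned. Line, species, depth and Input level changed together, so the part of each in these differences cannot be told apart. MEG3 stood at 335 CPM in the mESC Input and 0.620 CPM in the K562 Input, and DLK1 at 0.155 and 9.69 CPM. The median log2 IP/Input of genes in these Input level bands was -1.91 and 4.99 for MEG3, and 4.93 and 0.82 for DLK1. The medians of the bands under 1 CPM were set in part by the filter on low counts.

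**Figure D5:**
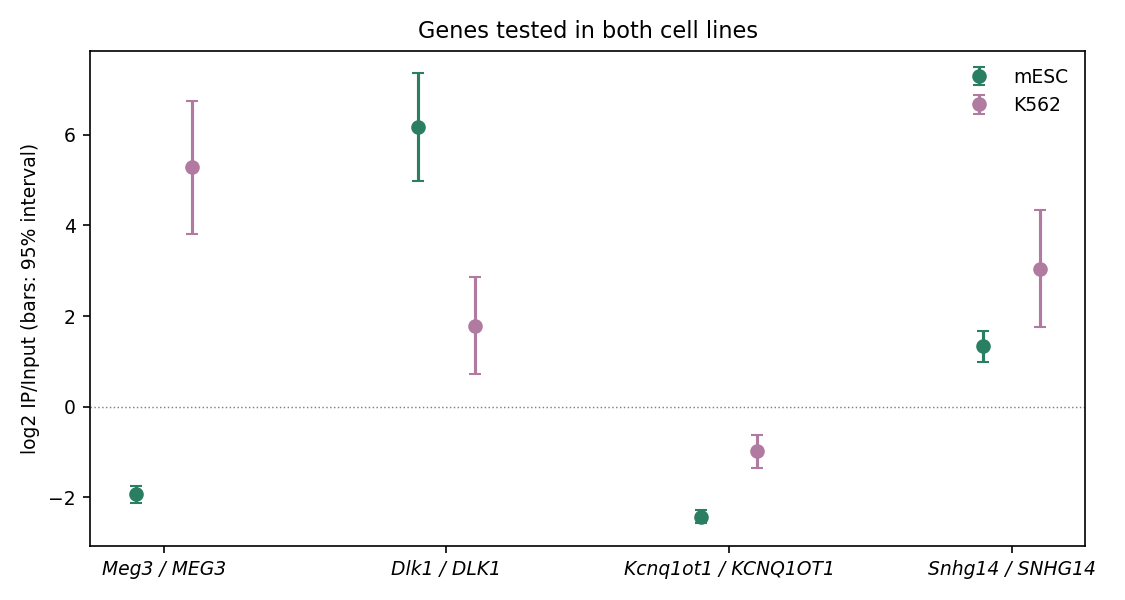
Log2 IP/Input of the 4 genes tested in both lines, in mESC (green) and K562 (purple), with 95% intervals from the edgeR fit of each line. Meg3 is at -1.94 in mESC and 5.28 in K562, Dlk1 at 6.17 and 1.78, Kcnq1ot1 at -2.43 and -0.98, and Snhg14 at 1.33 and 3.05.

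The coding and non-coding neighbours in the same clusters were taken from a list of 43 mouse genes, of which 35 were tested in mESC, 16 were called higher and 15 lower, with a median log2 IP/Input of 0.32. Over all tested genes 82.0% were called, 39.9% higher and 42.0% lower. Beside Igf2r, Kcnq1 and Ube3a, the genes of at least 1 CPM in Input are named here. In the Dlk1-Meg3 cluster, the retrotransposon-derived gene Rtl1 had a log2 IP/Input of 2.53, Begain of 3.21, and the unnamed transcripts Gm37899, B830012L14Rik and Gm27000 of -3.17, -3.23 and -1.24. Wars, a tRNA synthetase gene, fell by 1.24 and Wdr25 by 0.68 on the log2 scale, the latter turning to 0.32 when library size alone set the scale.

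Around Kcnq1ot1, Osbpl5 rose by 3.33, whereas Nap1l4, a histone chaperone gene, fell by 2.34, Dhcr7 by 1.65, Cd81 by 1.44, Tssc4 by 1.31 and Slc22a18 by 0.94 on the log2 scale, the last turning to 0.07 when library size alone set the scale. Phlda2 at 0.06 and Tspan32 at 0.55 did not pass. Beside H19, Th, the tyrosine hydroxylase gene, was at 1.90 and Mrpl23 at -2.46. Around Snhg14, Atp10a was at 1.33, and Snrpn at 0.32 did not pass. Around Peg13, Ago2 was at -1.94 and Trappc9 at -0.96, which became 0.05 when library size alone set the scale, and Chrac1 at -0.92 did not pass. Of the 43 neighbours, 14 held a mESC peak and 1, Igf2r, a region of all 3 replicates, which is the Airn region. Over all genes these shares were 18.4% and 0.980%.

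In K562, 43 of 45 listed neighbours were found and 18 were tested. Of all tested K562 genes 31.5% were called, 15.1% higher and 16.4% lower. KCNQ1, BEGAIN at 3.33 and TSPAN32 at 0.60 were called higher, and TRAPPC9 at -0.43, IGF2R at -0.28 and TSSC4 lower. TSSC4 had 340 Input counts and 0 IP counts, which makes it at least 1.04-fold lower against a floor of 3 counts over the IP libraries. The others did not pass, and among them WARS1, WDR25, MRPL23, SLC22A18, NAP1L4, CD81, OSBPL5, UBE3A, MKRN3, CHRAC1 and AGO2 had log2 IP/Input between -0.44 and 1.86.

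Imprinted genes of other clusters came from a list of 22 mouse genes, of which 20 were tested in mESC, 5 were called higher and 13 lower. Of all tested genes 82.0% were called, 39.9% higher and 42.0% lower. The median log2 IP/Input was -1.16 beside -0.17 over all genes, and the 2 sets were not matched for Input level. The highest were Rasgrf1 at 6.84, an exchange factor for Ras, and Sgce at 1.82, a sarcoglycan gene, and the lowest were Commd1 at -2.59, on 1 IP count, and Jade1 at -2.55. In K562, 11 of 24 were tested, with DIRAS3 at 3.75 and GNAS at 0.66 called higher and RB1 at -0.93 and PLAGL1 at -0.85 called lower. Of all tested K562 genes 31.5% were called, 15.1% higher and 16.4% lower.

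The gene whose 6 libraries were nearest to each of the imprinted-locus genes, by Euclidean distance of log2(CPM + 1), was in most cases a coding gene of the same level. In mESC these were Glg1 for Meg3 (distance 0.151), Son for Rian (0.0997), Prpf39 for Mirg (0.191), Usp7 for Kcnq1ot1 (0.142), Tec for Airn (0.304) and Clip2 for Snhg14 (0.245). Tmc2 was nearest to Dlk1 (0.252) and Gm5206, a pseudogene, to H19 (0.241). In K562, ARHGAP30 was nearest to MEG3 (0.433), the lncRNA ENSG00000223727 to DLK1 (0.343), BRIP1 to KCNQ1OT1 (0.158) and GNAO1 to SNHG14 (0.591).

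The genes of the set took 0.205% ± 0.000958 of the gene counts in the mESC Input and 0.102% ± 0.00901 in IP (SD, n = 3 each). In K562 the shares were 0.0305% ± 0.000369 in Input and 0.0270% ± 0.00408 in IP, and here the ranges overlapped.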

How the data were processed

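Chromatin-associated RNA of wild-type mESC and K562 cells was sequenced as Input and m5C-IP, 3 libraries per group and 12 in all. The study describes its replicates as biological, and the labels name no separate cultures, so p-values measure the spread between these libraries. Per the labels and the published methods, trimming used Trimmomatic 0.39 and reads were aligned with HISAT2 2.1.0 to mm10 or hg38. Reads without duplicates were split by strand with SAMtools 1.16.1, and MACS2 (version 2) called peaks in each library.

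The authors deposited raw counts of reads per gene for each library, ending in the summary lines of HTSeq, and, for the 3 mESC IP libraries, peak positions with a strand (unit other; the lists carry no usable score). Whether duplicates were removed before counting, and which features were counted, are not given in the sources used here. The values pointed to whole gene bodies and strand-aware counting, so levels per kilobase used body length outside other genes of the same strand. Summary lines were left out of library sizes and took 19.0% to 71.7% of records. Spike-ins were not used here, so values are relative within a library.

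GENCODE M21 (GRCm38) and 44 (GRCh38) gave symbols, gene positions and GC content; they are other releases than those of the study. Each line was fitted with edgeR 4.0.16 in R 4.3.3 (filterByExpr with a minimum count of 10 and a total of 15, TMM scaling, glmQLFit, glmQLFTest), with Benjamini-Hochberg adjustment over all genes at 0.05. The difference between lines was an interaction term over all 12 libraries. Scripts were tested on simulated data. False calls made up 1.48% of the simulated calls for mESC, 9.91% for K562 and 5.15% for the difference between lines. At the threshold of 0.05, adjusted p-values of K562 may therefore be too small. Peaks were assigned to gene bodies by position at an overlap of at least 1 base and merged by strand. Overlaps between gene bodies were found with bedtools 2.31.1.

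The genes and lists were chosen with earlier results of these data known. Named genes were all members of the set, neighbours of at least 1 CPM in Input, the 2 highest and 2 lowest called genes of the other imprinted genes, and the nearest gene in log2(CPM + 1). Of the genes this rule names, 1 neighbour is not reported here. Bands of Input level, within-library ratios and the count of genes inside other bodies were added after the data were seen. Alternatives were RLE or library size scaling, DESeq2 1.42.0, no filter, GC correction on exon GC content, Input thinned to IP depth, a replicate block, each library left out, and other peak rules. Whether replicate numbers pair the libraries could not be decided, so the main fits left them unpaired. Intervals on counts are exact at 95% and cover counting error only.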

Additional observations from a re-analysis of the deposited data

Results flagged for a closer look

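The test of the difference between the lines separated 3 of the imprinted-locus genes. MEG3 differed by 6.61 in log2 IP/Input (K562 minus mESC), on 9 IP counts in K562. DLK1 differed by -4.99, on 38 IP counts in mESC and 12 in K562. KCNQ1OT1 differed by 0.81, on 521 and 53 IP counts. Input levels of MEG3 and DLK1 moved against their ratios between the lines, as given in the report. The medians of their Input level bands in mESC and K562 were -1.91 and 4.99 for MEG3, and 4.93 and 0.82 for DLK1. In the fits of each line alone, MEG3 in K562 and Dlk1 in mESC reached the filter through the IP libraries only, so they had to be higher there. The same filters set in part the medians of the bands under 1 CPM. The joint fit was filtered over all 12 libraries.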

How the results depend on the processing

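Over 258 pairs of an imprinted-locus gene and an alternative, no called value changed direction and 9 calls fell short of the threshold. The AIRN difference between the lines, never called, went from 1.41 to -6.58 without K562 IP replicate 1, which held its 1 IP count, a fitted value that is no bound, and its range without single libraries was -6.58 to 2.01. In mESC all 8 tested genes were called under every alternative that could test them; with Input thinned to IP depth, Dlk1 and H19 could not be tested. In K562 the count of 4 called genes became 0 with Input thinned to IP depth, where only KCNQ1OT1 could be tested (log2 -0.45, adjusted p = 0.253 by edgeR), and leaving out single libraries gave 3 to 4, DLK1 falling short without IP replicate 1. The KCNQ1OT1 difference of 0.81 between the lines became 0.37 with RLE scaling, 0.50 with library size scaling, 0.37 with DESeq2, 0.63 with GC correction, 0.61 with GC correction and the replicate block, 0.78 without K562 IP replicate 1 and 0.54 without K562 IP replicate 2. None of these passed (adjusted p from 0.0502 to 0.336), and the cause was not tested. The 3 genes differing between the lines were 2 to 3 without single libraries. With Input thinned to IP depth, the mESC log2 IP/Input was -0.66 for Meg3, -1.04 for Rian, -1.45 for Mirg, -1.07 for Kcnq1ot1, 2.33 for Airn and 2.80 for Snhg14. Library size scaling moved the mESC median from -0.17 to 0.83 and the share of calls that were higher from 48.7% to 67.9%. In K562 that share went from 47.9% to 70.2%, or 64.8% with DESeq2. Over all genes, thinning took the mESC calls from 16590 to 6149 and the K562 calls from 4576 to 512, and no filter gave 8237 in K562. Of the 20 peaks, 11 lay on the strand of the gene and 9 on the opposite strand, 1 region was shared by at least 2 replicates and 1 by all 3, and leaving out single replicates gave 8 to 17 peaks, 8 of them without IP replicate 2.

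Libraries of the same replicate number correlated by 0.0183 to 0.0273 in mESC and by -0.00664 to 0.0219 in K562 after subtracting group means. Libraries of different numbers correlated negatively throughout in mESC, and in both directions in K562. These correlations were too small to decide whether the numbers pair the samples. With the replicate block, 8 genes of the set were called in mESC and 4 in K562 as before, and 15434 and 3940 genes in all. The 3-count floor of a K562 IP library, 27.0 to 32.2 CPM, is what limits MEG3, DLK1, SNHG14 and AIRN there.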
